A study of Mus musculus with 4 samples.

Results

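The 10 genes described here belong to the response to ATF4, the transcription factor of amino acid stress: Atf4 itself, Atf5, Ddit3, Trib3, Sesn2, Asns, Psat1, Phgdh, Slc7a11 and Chac1. They were taken by symbol from a table of 23418 gene symbols, and all 10 were found in it. RNA was sequenced from sorted B cells of the cervical lymph nodes in mice labelled BL/10, the controls, and in mice labelled NOD.B10, a strain that serves as a mouse model for Sjögren's disease, with 2 libraries for each strain. The labels give the strain as the only difference between the groups and name no treatment, allele, age or number of animals. Whether the libraries of a strain come from separate mice is not stated, so the p-values below measure the spread between these libraries, which may be technical. Libraries held between 19328803 and 29372751 reads. The B cell markers Cd79a and Ms4a1 were expressed in every library and neither was called different. In NOD.B10, 18 of 18 T cell markers were called lower, against 8.63% of all tested genes. Also lower were 6 of 6 tested NK cell markers, 3 of 3 of erythroid cells and 3 of 11 of macrophages. So were 3 of 7 of dendritic cells, 2 of 4 of neutrophils and 2 of 10 of plasma cells. No tested marker of these types was higher, while 1 of 5 stromal and endothelial markers was higher and none lower. Of all tested genes, 6.55% were called higher. The part of these cells in the strain differences below was not tested.

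ATF4 is made when the initiation factor eIF2 is phosphorylated, by GCN2 when amino acids run short, by PERK when the endoplasmic reticulum is stressed, by PKR when double-stranded RNA is present and by HRI when heme is lacking or mitochondria fail. Bulk protein synthesis then slows while the ATF4 message is translated better, so the amount of Atf4 RNA is only part of what sets ATF4 activity. The protein pairs with C/EBP factors on a composite element in DNA and switches on genes for amino acid synthesis, amino acid uptake, glutathione supply and feedback. Activated and antibody-secreting B cells have a high demand for amino acids.

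The composite element is shown here because it is the feature through which ATF4 is known to act on these genes. It was searched as TGATGNAA, on both strands, in windows from 250 bases before to 50 bases after each transcription start (RefSeq, GRCm38.p6, the C57BL/6J reference). Of 32851 such windows over all genes, 3.97% held it. Of the 10 genes here, which have 12 windows, 4 held it: Asns, Chac1, Slc7a11 and Trib3. The stricter form TGATGCAA, which is one of the sequences that TGATGNAA covers, was in 0.895% of all windows and in those of Chac1 and Slc7a11. The sites are written in the direction of the gene with the match in capitals, so a match on the opposite strand reads as its reverse complement.
Slc7a11, chr3:50443642-50443690, minus strand, 2 matches that begin 66 and 47 bases before the start at 50443613: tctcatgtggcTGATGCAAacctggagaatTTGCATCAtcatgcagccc
Asns, chr6:7693214-7693243, minus strand, 23 bases before the start: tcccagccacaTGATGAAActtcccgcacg
Chac1, chr2:119351038-119351067, plus strand, 193 bases before the start: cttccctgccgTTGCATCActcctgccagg
Trib3, chr2:152344028-152344057, minus strand, from base 15 of the transcript: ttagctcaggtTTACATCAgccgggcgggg
Slc7a11 was the gene with a match in each orientation, spaced closely. Its start at 50443613 is the 1 listed in the promoter table and lies inside the longer RefSeq gene span given below, which ends at 50499087. No match in the other 6 genes says only that these letters are not in these windows, and elements farther away were not searched. The sequences are those of the reference strain, and the alleles of the strains compared were not analysed here.

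The 10 genes did not move together between the strains. Of the 9 that had enough reads to be tested, Trib3 rose and Phgdh fell in NOD.B10, and the other 7 were not called (edgeR quasi-likelihood test, Benjamini-Hochberg adjusted over 13075 genes, called at an adjusted p under 0.05). Among all tested genes 15.2% were called, 6.55% higher and 8.63% lower, so 2 of 9 is a count of the size that the table as a whole gives. The median log2 fold change of the 9, NOD.B10 over BL/10, was −0.14, against −0.00321 over all tested genes. Levels are in CPM, the reads of a gene in every 1000000 reads of a library after TMM scaling. On this scale the strains did not overlap for 6 of the 9 tested genes, where 55.6% of all tested genes did not overlap, 27.9% with NOD.B10 above and 27.7% below. With Chac1, which had too few reads to be tested, they did not overlap for 7 of the 10, with NOD.B10 above for 2 and below for 5. The plot of levels by library shows each gene on its own scale.

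**Figure D1:**
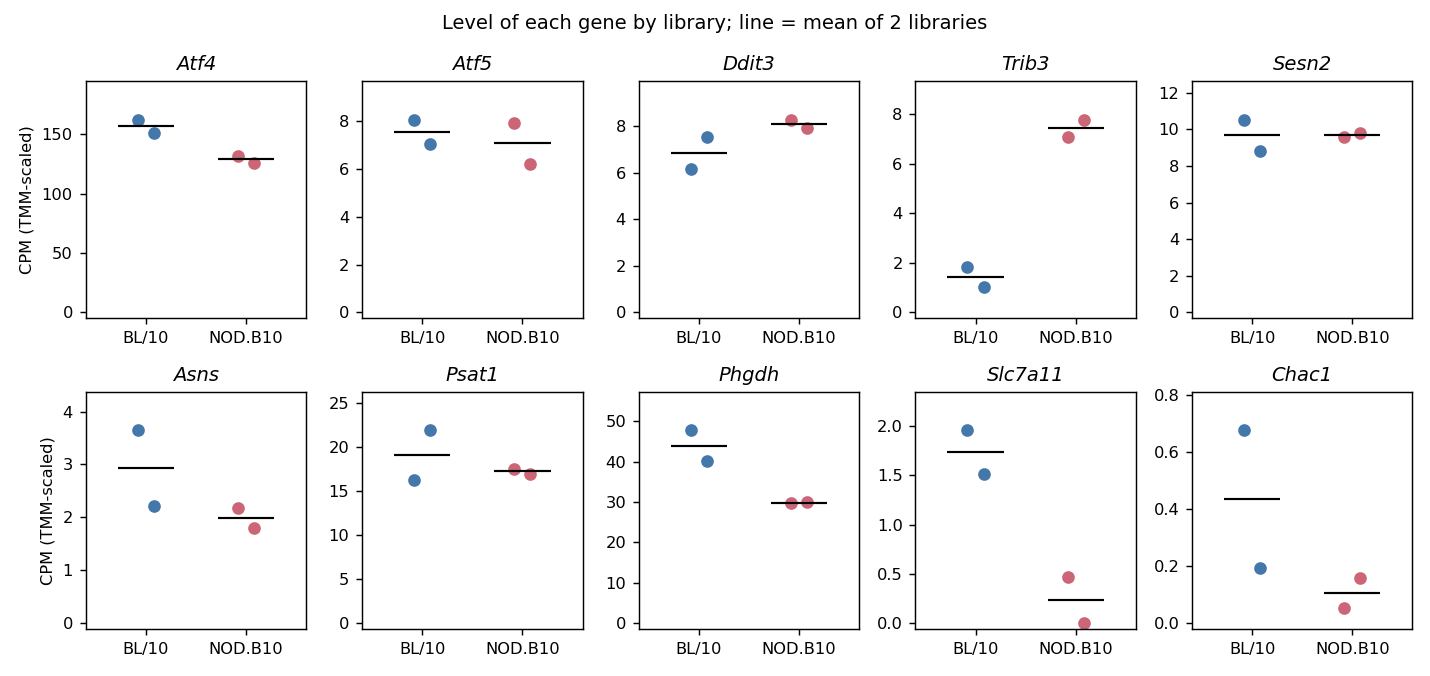
CPM of the 10 genes in each of the 2 BL/10 and 2 NOD.B10 libraries, with each point 1 library, each line the mean of a strain and every axis running to 0. Trib3 stands at 1.01 and 1.82 CPM in BL/10 and 7.10 and 7.79 CPM in NOD.B10, Phgdh lies lower in both NOD.B10 libraries, and Atf5, Sesn2 and Psat1 overlap.

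Atf4 (chromosome 15, 80255184 to 80257545), which encodes the factor itself, had 4811 and 3902 reads in BL/10 and 2551 and 3219 reads in NOD.B10. These are 162 and 151 CPM in BL/10 and 132 and 126 CPM in NOD.B10, so both NOD.B10 libraries lay below both BL/10 libraries, with a ratio of the means of 0.823. The log2 fold change was −0.28 (SE 0.110, 95% interval −0.52 to −0.04) with an unadjusted p of 0.0239, and it was not called (edgeR adjusted p = 0.113).
Atf5 (chromosome 7, 44812256 to 44816658), a related factor that ATF4 induces and that is linked to mitochondrial stress, stood at 8.07 and 7.05 CPM in BL/10 and at 7.93 and 6.23 CPM in NOD.B10. The libraries of the strains overlapped, with a log2 fold change of −0.10 (95% interval −0.66 to 0.46).
Ddit3 (chromosome 10, 127290793 to 127296291), which encodes CHOP, the factor tied to cell death under prolonged stress, stood at 6.15 and 7.56 CPM in BL/10 and at 8.29 and 7.95 CPM in NOD.B10. The NOD.B10 libraries were just above the higher BL/10 library, and the log2 fold change of 0.25 (95% interval −0.30 to 0.79) was not called (edgeR adjusted p = 0.604). The RNA of the 3 factors therefore differed between the strains by less than the test could call. As NOD.B10 over BL/10, the 95% intervals ran from 0.698-fold to 0.970-fold for Atf4 and from 0.632-fold to 1.38-fold for Atf5. That of Ddit3 ran from 0.812-fold to 1.73-fold. Exons of Atf5 share 82 bases with Il4i1 and with Nup62 on the opposite strand, and those of Ddit3 share 68 bases with Mars and 13 with Gm4189, so without a known strand setting a small part of their reads may belong to those genes.

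Trib3 (chromosome 2, 152337425 to 152344060), a pseudokinase that binds ATF4 and CHOP and restrains them, showed the clearest difference. It had 54 and 26 reads in BL/10 and 137 and 199 reads in NOD.B10, although the NOD.B10 libraries held fewer reads in all. Levels were 1.82 and 1.01 CPM in BL/10 and 7.10 and 7.79 CPM in NOD.B10, so the lower NOD.B10 library was well above the higher BL/10 library. The means were 1.42 ± 0.577 and 7.44 ± 0.490 CPM (SD, n = 2), a ratio of 5.26, and the log2 fold change was 2.38 (SE 0.370, edgeR adjusted p = 0.000622, higher in 2 of 2 libraries). The 95% interval ran from 3.01-fold to 9.10-fold. The call held in all 14 alternative settings, with log2 fold changes between 2.02 and 2.88 and adjusted p between 3.80e-09 and 0.00271.
Sesn2 (chromosome 4, 132492804 to 132510456), a leucine sensor that lowers mTORC1 activity, was nearly level, at 10.5 and 8.84 CPM in BL/10 and 9.58 and 9.83 CPM in NOD.B10. Both NOD.B10 libraries lay between the BL/10 libraries, and the 95% interval ran from 0.716-fold to 1.40-fold. Of the feedback genes, only Trib3 was thus called, and the difference between the changes of Trib3 and Sesn2 was not tested.

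Phgdh (chromosome 3, 98313171 to 98339969), which encodes the first enzyme of serine synthesis from a glycolytic intermediate, was the member that fell. It had 1414 and 1037 reads in BL/10 and 574 and 765 reads in NOD.B10. Levels were 47.7 and 40.2 CPM in BL/10 and 29.7 and 30.0 CPM in NOD.B10, with the NOD.B10 libraries almost equal and both below BL/10. The means were 44.0 ± 5.34 and 29.8 ± 0.150 CPM (SD, n = 2), a 1.47-fold fall (log2 fold change −0.56, SE 0.143, edgeR adjusted p = 0.0175, lower in 2 of 2 libraries). With the first BL/10 library left out the log2 fold change was −0.43 and no longer called (adjusted p = 0.103). A processed pseudogene, Phgdh-ps1, is annotated in the mouse genome, and the handling of reads that match both was not given in the sources used here.
Of 15 cell cycle genes 8 were also called lower in NOD.B10, against 8.63% of all tested genes. The summed level of the 15 was 258 to 284 CPM in NOD.B10 against 364 to 430 CPM in BL/10. The summed T cell markers were at 213 to 225 CPM in NOD.B10 and 738 to 838 CPM in BL/10. The part of either in the Phgdh result was not tested, and in bulk RNA fewer cells of a type and less RNA per cell cannot be told apart.

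Psat1 (chromosome 19, 15905123 to 15925059), the aminotransferase that acts just after Phgdh, was not called. It stood at 16.2 and 21.9 CPM in BL/10 and at 17.5 and 16.9 CPM in NOD.B10, with both NOD.B10 libraries inside the BL/10 range (log2 fold change −0.14, 95% interval −0.56 to 0.27). The low end of this interval reaches the log2 fold change of Phgdh, −0.56. Whether the changes of Psat1 and Phgdh differ was not tested.
Asns (chromosome 6, 7675165 to 7693209), which makes asparagine and is the classic reporter of amino acid shortage, had 108 and 57 reads in BL/10 and 42 and 46 reads in NOD.B10. These are 3.65 and 2.21 CPM in BL/10 and 2.18 and 1.80 CPM in NOD.B10. The higher NOD.B10 library was only just below the lower BL/10 library, and BL/10 libraries differed 1.65-fold from each other. The log2 fold change of −0.56 had an SE of 0.433 and was not called (edgeR adjusted p = 0.466). Its size was about that of Phgdh, with an error about as large as the difference.

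Slc7a11 (chromosome 3, 50364936 to 50499087), the cystine and glutamate exchanger that supplies cysteine for glutathione, had the lowest fold change of the 9. It had 58 and 39 reads in BL/10, 9 reads in the first NOD.B10 library and 0 in the second. Levels were 1.96 and 1.51 CPM in BL/10 and 0.466 CPM in the first NOD.B10 library, and the 0 in the second allows up to 0.117 CPM (3 reads of that library). Both NOD.B10 libraries thus lay below both BL/10 libraries, yet they differed from each other too. The log2 fold change was −3.00 (SE 0.991) and missed the threshold (edgeR adjusted p = 0.0686). Over the summed reads, 97 in BL/10 and 9 in NOD.B10, the level was 8.72-fold lower in NOD.B10, with a 95% interval of 4.41 to 19.6 that covers counting error only. The gene passed the filter on low counts through its BL/10 reads. It was called lower in 4 of the 13 alternative settings that kept reads in both strains: with no filter (adjusted p = 0.00126), with the stricter filter (adjusted p = 0.0456), with DESeq2 (adjusted p = 0.0413) and with limma-voom (adjusted p = 0.0350). Over these 13 the adjusted p ran from 0.00126 to 0.186. Omitting the second NOD.B10 library gave a log2 fold change of −1.89 (adjusted p = 0.0834), and omitting the first left only the library with 0 reads, from which no fold change can be estimated. Markers of macrophages, another possible source of Slc7a11 RNA, moved the same way, as did markers of several other cell types given above. Of 11 tested macrophage markers 3 were called lower and none higher, where 8.63% of all tested genes were called lower. The whole macrophage list summed to 132 to 133 CPM in BL/10 against 43.7 to 62.1 CPM in NOD.B10. The part of these cells in the Slc7a11 result was not tested.
Chac1 (chromosome 2, 119351242 to 119354326), an enzyme that breaks down glutathione and a sensitive reporter of ATF4 and CHOP, was close to the limit of detection and did not pass the filter. It had 20 and 5 reads in BL/10 and 1 and 4 reads in NOD.B10, which is 0.675, 0.194, 0.0518 and 0.157 CPM. The NOD.B10 libraries lay below BL/10, the nearest by 1 read in raw counts. BL/10 libraries differed 3.49-fold and NOD.B10 libraries 3.02-fold from each other, nearly as much as the strains differed in their summed reads, 4.05-fold lower in NOD.B10 (95% counting interval 1.52 to 13.5). Tested without the filter, it was not called (edgeR adjusted p = 0.416). Both genes of cystine and glutathione were thus at low levels, and each was listed lower in NOD.B10. Slc7a11 was not called in the main test, and Chac1 was not part of it.

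**Figure D2:**
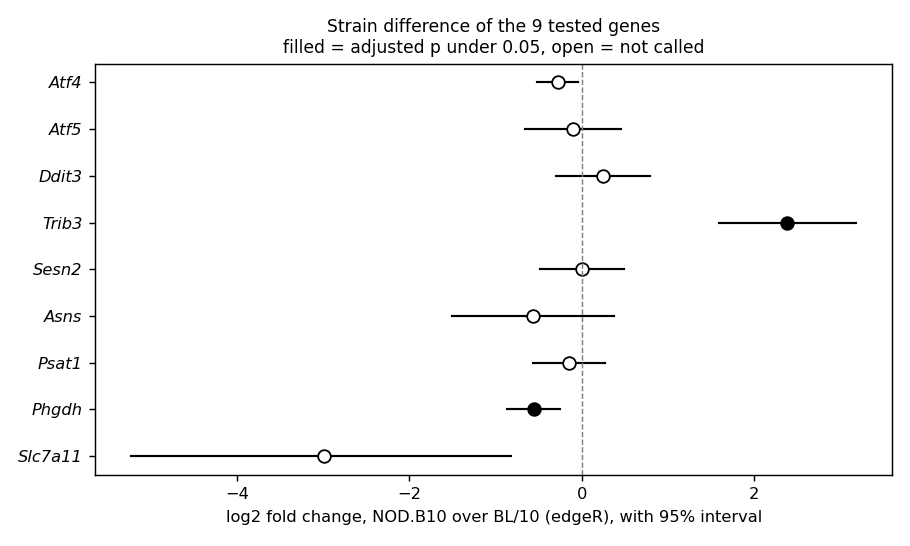
Log2 fold change of the 9 tested genes, NOD.B10 over BL/10, with the 95% interval from the edgeR test; filled points have an adjusted p under 0.05. Trib3 at 2.38 and Phgdh at −0.56 are filled, and the widest interval belongs to Slc7a11, from −5.23 to −0.83.

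Levels can be compared between genes only per length, as reads per kilobase in 1000000 reads (RPKM, with the gene lengths of the deposited table). On that scale Atf4 was the most abundant of the 10 in both strains, at 90.9 ± 4.60 RPKM in BL/10 and 74.8 ± 2.52 RPKM in NOD.B10 (SD, n = 2). Phgdh came next, at 23.5 ± 2.86 and 16.0 ± 0.0801 RPKM. Ddit3 and Psat1 followed in both strains, overlapping in BL/10 at 7.87 ± 1.15 and 7.63 ± 1.61 RPKM and not overlapping in NOD.B10 at 9.32 ± 0.278 and 6.90 ± 0.155 RPKM.
Atf5 and Sesn2 lay between 3.12 and 4.05 RPKM in every library, and their order could not be told in either strain. Asns was at 1.52 ± 0.528 RPKM in BL/10 and 1.03 ± 0.138 RPKM in NOD.B10. Trib3 was at 0.690 ± 0.281 RPKM in BL/10, below Asns in both libraries, and at 3.63 ± 0.239 RPKM in NOD.B10, where it was above Asns and overlapped Sesn2 and Atf5. Chac1 and Slc7a11 were the lowest in both strains, under 0.5 RPKM in every library, and they overlapped each other.

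**Figure D3:**
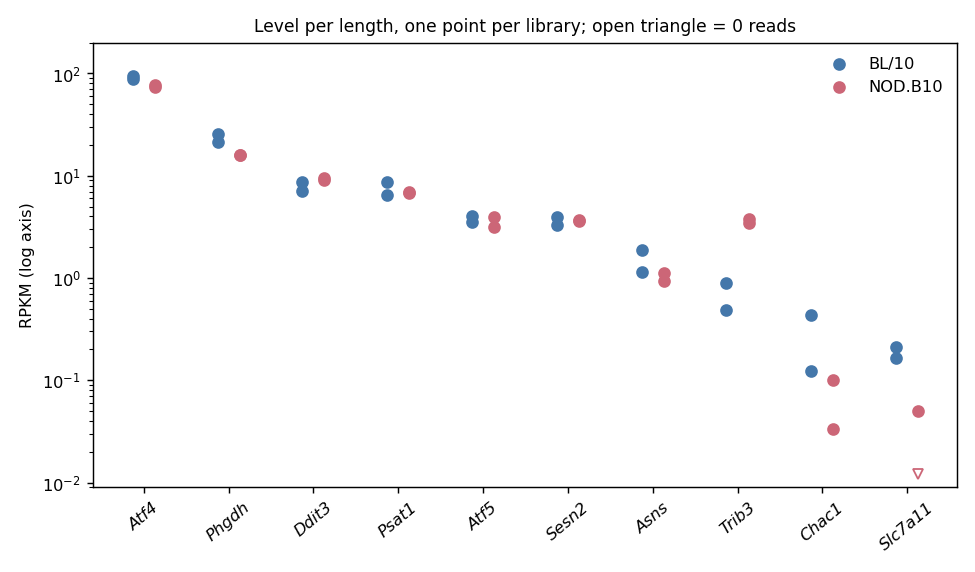
RPKM of the 10 genes on a log axis, ordered by their BL/10 mean, 1 point per library; the open triangle marks the library with 0 reads. Trib3 lies below Asns in BL/10 and at the level of Atf5 and Sesn2 in NOD.B10.

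The wider pathway was read from 9 lists on eIF2 control, partner factors, amino acid enzymes and transporters, tRNA charging, stress and autophagy, glutathione, the other arms of the unfolded protein response and mitochondrial stress. Of their 154 counted genes, 143 were tested, and 10 rose and 11 fell in NOD.B10, which is 14.7% of those tested and close to the 15.2% of all genes. Their median log2 fold change was −0.03. By list, the share called was 13.3% for eIF2 control, 16.7% for partner factors, 9.52% for amino acid enzymes and 20% for transporters. It was 4.76% for tRNA charging, 27.3% for stress and autophagy and 13.3% for glutathione. For the other arms of the unfolded protein response it was 12.5%, and for mitochondrial stress 16.7%. Among the plots, that of the pathway lists shows medians between −0.15 and 0.04.

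**Figure D4:**
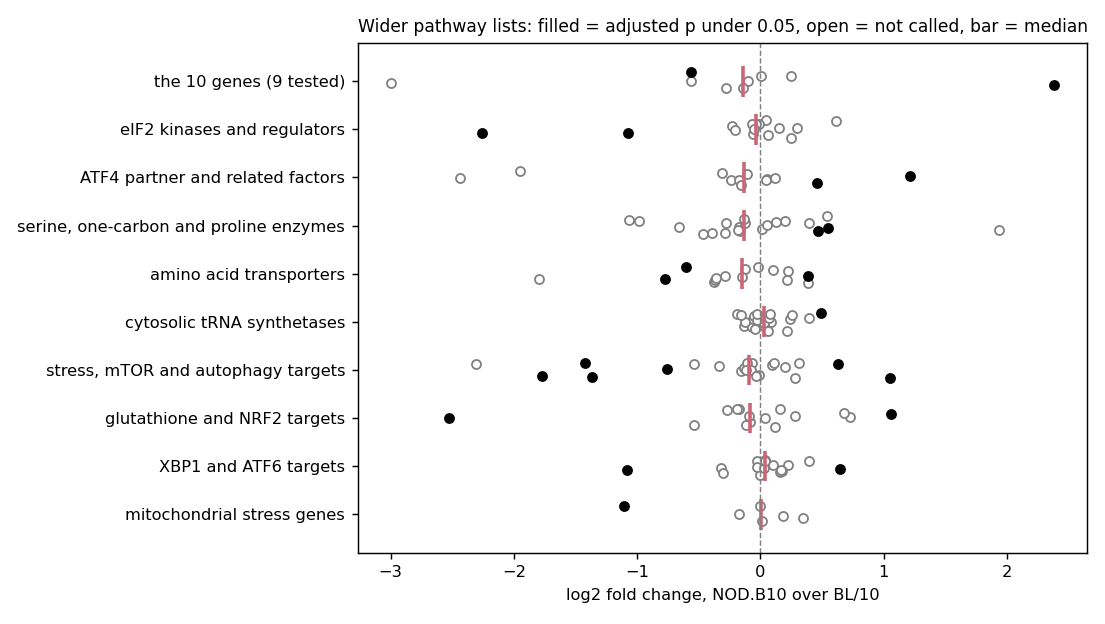
Log2 fold change, NOD.B10 over BL/10, of every tested gene in the 10-gene set and in 9 wider lists, 1 point per gene, filled where the adjusted p is under 0.05, with a bar at the median. Each list holds mostly open points around 0, with called genes on both sides or on 1 side.

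Upstream of ATF4, 2 of 15 genes fell and none rose, 13.3% against 15.2% of all tested genes. Both were eIF2 kinases. Eif2ak2, which encodes PKR, the double-stranded RNA sensor and an interferon-stimulated gene, stood at 72.9 and 72.4 CPM in BL/10 and at 15.5 and 14.8 CPM in NOD.B10 (log2 fold change −2.26, SE 0.135, edgeR adjusted p = 9.36e-08). Eif2ak3, which encodes PERK, stood at 272 and 183 CPM in BL/10 and at 107 and 109 CPM in NOD.B10 (log2 fold change −1.08, SE 0.175, edgeR adjusted p = 0.00395). All NOD.B10 libraries lay below BL/10 for both kinases. The amino acid sensor Eif2ak4, which encodes GCN2, was not called, at 68.0 and 57.4 CPM in BL/10 and 76.5 and 77.5 CPM in NOD.B10, and neither was Eif2ak1, which encodes HRI, at 83.8 to 89.8 CPM in all libraries. These last values were picked to complete the set of kinases.

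Of 12 tested partner and related factors 2 rose: Cebpb, a C/EBP partner of ATF4, from 3.67 ± 0.204 to 8.57 ± 2.82 CPM (SD, n = 2, edgeR adjusted p = 0.0164), and Nfe2l1, a factor that drives proteasome genes, from 179 ± 10.3 to 245 ± 5.89 CPM (adjusted p = 0.0103). Omitting the second BL/10 or the first NOD.B10 library gave Cebpb adjusted p-values of 0.0534 and 0.154, and omitting the second NOD.B10 library gave Nfe2l1 one of 0.0624.
Of 21 enzymes of serine, one-carbon, proline and related metabolism 2 rose and none fell. These were Mthfd1, the cytosolic folate enzyme, with 40.9 and 57.8 CPM in BL/10 and 67.1 and 77.1 CPM in NOD.B10 (edgeR adjusted p = 0.0459), and Got1, an aspartate aminotransferase, with 30.3 and 28.8 CPM in BL/10 and 39.5 and 42.0 CPM in NOD.B10 (adjusted p = 0.0377). The fall of Phgdh was thus not matched by a called fall among these enzymes. Leaving out the first BL/10 or the second NOD.B10 library took the adjusted p of Mthfd1 to 0.171 and 0.0769, and RLE factors, upper-quartile factors and library sizes without Rn45s took it to 0.0522, 0.0508 and 0.0522. That of Got1 went to 0.101, 0.0950 and 0.176 when the second BL/10, the first NOD.B10 or the second NOD.B10 library was omitted, and to 0.0532 in the fit with the replicate block.

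Amino acid transporters went both ways, with 2 of 15 lower and 1 higher. Slc1a5, the glutamine transporter also known as ASCT2, had 142 and 128 CPM in BL/10 and 77.5 and 80.5 CPM in NOD.B10, a log2 fold change of −0.77 (SE 0.115, edgeR adjusted p = 0.000429). Slc7a1, the arginine and lysine transporter, had 158 and 160 CPM in BL/10 and 105 and 104 CPM in NOD.B10, a log2 fold change of −0.60 (SE 0.109, edgeR adjusted p = 0.00208). Neither lost its call in any of the 14 settings.
Slc43a2, a transporter of large neutral amino acids, rose from 176 ± 23.0 to 230 ± 8.83 CPM (edgeR adjusted p = 0.0422), but its adjusted p was 0.154, 0.0870 and 0.172 when the second BL/10, the first NOD.B10 or the second NOD.B10 library was omitted, 0.0556 under non-robust dispersion and 0.0604 in the fit with the replicate block. Of 21 genes for cytosolic tRNA synthetases and tRNA export, Lars, which charges leucine, rose from 67.0 ± 8.27 to 94.2 ± 2.68 CPM (adjusted p = 0.0157), and the other 20 were not called. Omitting the first BL/10 library took Lars to an adjusted p of 0.0711. The tRNA charging genes were the list with the lowest share called, 4.76%.

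Among stress, mTOR and autophagy genes 4 of 22 fell and 2 rose. Bbc3, which encodes the death protein PUMA, fell from 5.55 ± 0.922 to 1.62 ± 0.194 CPM (SD, n = 2, edgeR adjusted p = 0.00481). Fam129a, also called Niban1, fell from 8.91 ± 1.33 to 3.33 ± 0.497 CPM (adjusted p = 0.00457), and Gabarapl1, an autophagosome protein gene, from 6.89 ± 0.376 to 2.67 ± 0.327 CPM (adjusted p = 0.00913). Outside the naming rule, Ddit4, which encodes the mTORC1 inhibitor REDD1, fell with a log2 fold change of −0.76 (adjusted p = 0.0113), and Trib2, a relative of Trib3, and the death receptor gene Tnfrsf10b rose by 0.63 and 1.05 on the log2 scale (adjusted p = 0.0215 and 0.0373). Omitting the first BL/10, the second BL/10 or the second NOD.B10 library took Tnfrsf10b to adjusted p-values of 0.165, 0.0599 and 0.179.
The secreted reporters of the response were not found at usable levels: Stc2 had 0 reads in every library, and Gdf15 and Fgf21 were under 0.04 CPM in each. Ddit4, Bbc3 and Tnfrsf10b are known as targets of other factors too.

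Of 15 tested glutathione and NRF2 genes 1 rose and 1 fell. Gsr, glutathione reductase, rose from 7.82 ± 2.65 to 16.2 ± 2.90 CPM (SD, n = 2, edgeR adjusted p = 0.0154), without a call when the first BL/10 library was left out (adjusted p = 0.0589). Hmox1, heme oxygenase, fell from 1.31 ± 0.561 to 0.221 ± 0.0196 CPM (adjusted p = 0.0336). Its NOD.B10 level is worth only a few reads, and the gene passed the filter on low counts through its BL/10 reads. Its adjusted p lay between 0.0597 and 0.327 with any single library omitted, and was 0.0674 by DESeq2, 0.0740 by limma-voom and 0.0686 in the fit with the replicate block.
In the XBP1 and ATF6 arms of the unfolded protein response 1 of 16 genes fell and 1 rose. Pdia4, a disulfide isomerase, fell from 302 ± 17.8 to 143 ± 1.83 CPM (SD, n = 2, edgeR adjusted p = 1.23e-05), and Sdf2l1, a chaperone partner, rose from 15.5 ± 2.99 to 24.2 ± 1.52 CPM (adjusted p = 0.0316). Sdf2l1 had adjusted p-values of 0.175 and 0.104 when the first BL/10 or the first NOD.B10 library was omitted. Of 6 mitochondrial stress genes Hspe1, the mitochondrial cochaperonin, fell from 39.2 ± 11.7 to 18.2 ± 1.56 CPM (adjusted p = 0.00358).

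Immediate-early genes, which respond quickly to the handling of cells, were read beside the stress genes. Their summed level was 2055 and 1795 CPM in BL/10, 3101 CPM in the first NOD.B10 library and 1305 CPM in the second, with 1 of 15 tested lower and none higher. The eIF2 phosphatase subunit gene Ppp1r15a, picked after its values were seen, followed the same order in NOD.B10, at 74.8 and 18.6 CPM. So did 3 other genes of the lists, also picked after their values were seen: Cebpb, called above, at 10.6 and 6.58 CPM, Dnajb9 at 88.3 and 34.1 CPM and Atf3 at 1.81 CPM and 0 reads. Slc7a11 had its 9 reads in the first of these libraries too. Trib3, at 7.10 and 7.79 CPM, and Ddit3, at 8.29 and 7.95 CPM, were nearly equal in these 2 libraries. Other genes of the lists went the other way, such as Tnfrsf10b at 5.85 and 7.95 CPM and Slc1a4 at 1.09 and 2.74 CPM. The genes with either order were not counted. The part of handling in the results above was not tested.

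The genes whose levels over the 4 libraries lay closest to those of Atf4, by Euclidean distance between log2 CPM centred on each gene's mean, were Rbbp8, Ube2b and Mtch1, at distances of 0.0329, 0.0346 and 0.0379. They were chosen from 8897 tested genes of at least 3 average log2 CPM. Of these, 878 lay within a distance of 0.2. That distance is not small beside the Atf4 log2 fold change of −0.28. The 878 can therefore include genes that barely differed between the strains. How common a slightly lower level in NOD.B10 was among these genes was not tested.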

How the data were processed

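The authors deposited 1 table of raw read counts per gene symbol for 4 libraries, with gene lengths in bases; no other per-sample column was present. Per the submitters' processing notes, HISAT2 2.1.0, SAMtools 1.3, Subread 1.6.5 and featureCounts were used with mm10. The annotation, strand setting and treatment of reads with several alignments are not given in the sources used here. Reads of NOD.B10 that differ from the reference may align less well, which was not tested. Library columns were matched by the library names in the labels.

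Counts were tested with edgeR 4.0.16 (glmQLFit and glmQLFTest, robust, two-sided, TMM) in R 4.3.3 after filterByExpr (minimum count 10, minimum total 15), over 13075 genes, and p-values were adjusted by Benjamini-Hochberg. CPM and RPKM use TMM-scaled library sizes. SE is the size of the unshrunken log2 fold change over the square root of F, and 95% intervals use the test's degrees of freedom. Library totals limit precision: 1 read was worth 0.0338 to 0.0518 CPM.

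The members and lists were chosen with earlier results of these data known. Named genes were all members, up to 3 called genes per list with the smallest adjusted p (2 by unadjusted p where none was called), and the 3 genes closest to Atf4. Other settings, DESeq2 1.42.0 and limma 3.58.1 among them, are in the closing section. The test was also tried on simulated counts, where the limit for passing was set after a first run. Genes missed in that run were mostly under 1 CPM. Overlaps of exons come from GENCODE M21, coordinates and sequences from RefSeq GRCm38.p6, where all 10 genes matched.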

Additional observations from a re-analysis of the deposited data

How the results depend on the processing

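The 9 tested genes and the 21 called genes of the wider lists were recomputed under 14 alternatives each, apart from Hmox1, which could not be tested with the stricter filter. Atf4, Ddit3, Trib3 and Asns, and 11 of the 21, kept direction and side of the threshold in all of them. With 1 library left out, 1 to 3 of the 10 genes, 20 to 26 wider genes and 1756 to 2074 of all genes were called, the lone library of a strain being taken to vary like the others. The count of 3 includes Slc7a11 against a lone NOD.B10 library with 0 reads, which gives no usable estimate. Of all genes, 586 rose and 1228 fell without the first NOD.B10 library, against 857 and 1129 with all 4. Differences near 0 changed sign: Sesn2, 0.00249 as reported, was −0.0076 with RLE factors, −0.00099 without Rn45s, −0.00035 with the stricter filter, −0.0075 with DESeq2 and −0.12 to 0.14 with 1 library left out. Over the libraries left out, Atf5 ran from −0.29 to 0.067 and Psat1 from −0.35 to 0.082. The causes were not tested. The labels do not say whether libraries of the same replicate number were handled together. Deviations of the first libraries from their strain means were nearly uncorrelated between the strains (r = −0.0165 across 13075 genes). With 2 libraries per strain, this does not settle whether they were paired. With the replicate block 1802 of all genes, 2 of the 10 genes and 19 wider genes were called. Genes under about 1 CPM, among the members Chac1 in every library and Slc7a11 in NOD.B10, are limited by depth.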

Other observations

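Within 500 kb of the 10 genes, 163 other genes were tested, of which 6 rose and 14 fell in NOD.B10, together 12.3% against 15.2% of all genes. Around Atf4 on chromosome 15, 6 of 16 were called and all 6 fell: Apobec3, Cbx6, Cbx7, Pdgfb, Rpl3 and D730005E14Rik, named after their values were seen. With any 1 library left out, the genes called in the window around Atf4 were again all lower. These fits reuse the libraries by which the window was singled out, so they are no separate evidence. Whether the same genes were called was not checked. Atf4 itself was not called. Around Trib3, 1 of 11 tested neighbours was called, Bcl2l1, which was lower while Trib3 was higher.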
